A study of Rattus norvegicus with 12 samples.

Results

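Chemokines are small secreted proteins that guide the movement of white blood cells through G protein-coupled receptors, and the genes described here are the chemokine ligands and their receptors in the kidney cortex of rats with a mutated Xdh gene. Xdh encodes xanthine dehydrogenase, the enzyme that makes uric acid at the end of purine breakdown. Members were all genes whose symbol is Ccl, Cxcl, Cx3cl, Xcl, Ccr, Cxcr, Cx3cr, Xcr or Ackr followed by a number, which gave 54 of the 32623 genes in the count table, 34 ligands and 20 receptors. Ccr2 and Ackr1 were not among the rows so matched and are not analysed here. The libraries came from male rats aged 6 weeks that were homozygous for the mutation (HOMO, n = 4), heterozygous (HET, n = 4) or wild type (WT, n = 4). All 3 genotypes were littermates and carried the same strain label, SS-Xdhem1Mcwi, so the SS background (the Dahl salt-sensitive rat) was shared by the WT rats. The mutation is inherited and affects every cell, and RNA came from homogenised cortex, so fewer cells of a type and less RNA per cell cannot be told apart. Nothing in the labels says that the libraries are from separate animals, and without that the p-values reflect no more than how these libraries vary, which can be technical.

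Total counts were 22858907 to 36998378 in HOMO, 18995464 to 37023629 in HET and 28481944 to 36119168 in WT libraries. Levels below are TMM-scaled CPM, read counts set relative to the effective size of each library, and 15856 genes passed the filter on low counts, among them 49 members (31 ligands and 18 receptors). Xdh itself averaged 102 ± 84.9 CPM in HOMO, 170 ± 25.3 CPM in HET and 286 ± 69.7 CPM in WT libraries (SD, n = 4 each). The library labelled HOMO replicate 3 held 230 CPM of Xdh, against 57.6 to 61.7 CPM in the other HOMO libraries, a level that by itself goes against its label. By other transcripts it lay with the HOMO libraries and apart from HET and WT libraries. It held 1416 CPM of proximal tubule markers, 1060 CPM of macrophage markers and 0.461 CPM of Ccr10. The reason for its Xdh level was not tested. HOMO replicate 1 carried 551 CPM of 4 fat marker genes and 140 CPM of 4 urothelial marker genes, where the other HOMO libraries held at most 21.1 and 4.06 CPM. HET replicate 1 carried 159 CPM of the fat markers, against 8.40 to 32.9 CPM in the other HET libraries. Without HOMO replicates 1 and 3 together 37 members rose and 4 fell in HOMO relative to WT cortex, of 50 tested, and with them 36 rose and 3 fell, of 49 tested. Proximal tubule markers summed to 1416 to 1731 CPM in HOMO, 13326 to 14256 CPM in HET and 12088 to 15701 CPM in WT libraries, so the defining transcripts of kidney cortex were present in every library and all 5 of them fell in HOMO cortex.

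Chemokine ligands bind to heparan sulfate on cells and matrix and form gradients that their receptors, which couple mainly to inhibitory G proteins, read as a direction. The ligands with the sequence Glu-Leu-Arg before their first cysteines, such as CXCL1 and CXCL2, draw neutrophils through CXCR2, CC ligands such as CCL2 and CCL3 draw monocytes and macrophages, and CCL19, CCL21 and CXCL13 organise lymphocytes in lymphoid tissue. CXCL9, CXCL10 and CXCL11 are induced by interferons and draw activated T cells through CXCR3, and atypical receptors of the ACKR family bind ligands without G protein signalling and clear them. In injured kidney these genes are known both from tubule cells, which release neutrophil- and monocyte-attracting ligands, and from the white blood cells that enter the tissue.

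Of the CXC ligand genes, 7 lie in a pair of groups on rat chromosome 14, and promoters from both are shown because one group rose together in HOMO cortex while no member of the other was called in the fit of all libraries. In the coordinates of the count table, for which the submitters' processing notes name Rnor_6.0, Cxcl2, Cxcl1, Cxcl3 and Cxcl6 have listed starts at 18731378, 18743685, 18820168 and 18860264, and Cxcl11, Cxcl10 and Cxcl9 at 17195014, 17210733 and 17228856. RefSeq promoters (build GRCr8) were found for 41 of the 54 members. Of the 7 genes, only those with a match to the NF-kappaB consensus are printed. Cxcl3 and Cxcl9 are not printed and had no listed match, and whether a promoter or a match was lacking is not given here. The 200 bases before the start are printed 5′ to 3′ on the gene's strand, with matches to the NF-kappaB consensus in capitals. They are chr14:17479322-17479521 on the minus strand for Cxcl1, chr14:17467256-17467455 on the minus strand for Cxcl2, chr14:17596418-17596617 on the minus strand for Cxcl6, chr14:15988866-15989065 on the plus strand for Cxcl10 and chr14:15973528-15973727 on the plus strand for Cxcl11.
Cxcl1: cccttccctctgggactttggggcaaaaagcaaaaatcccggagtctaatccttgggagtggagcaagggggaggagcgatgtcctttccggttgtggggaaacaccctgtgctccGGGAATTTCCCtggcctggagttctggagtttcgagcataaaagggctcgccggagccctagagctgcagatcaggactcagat
Cxcl2: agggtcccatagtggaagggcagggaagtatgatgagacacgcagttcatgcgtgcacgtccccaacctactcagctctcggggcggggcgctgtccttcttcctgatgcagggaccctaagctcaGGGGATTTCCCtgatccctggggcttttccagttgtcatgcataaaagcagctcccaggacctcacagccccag
Cxcl6: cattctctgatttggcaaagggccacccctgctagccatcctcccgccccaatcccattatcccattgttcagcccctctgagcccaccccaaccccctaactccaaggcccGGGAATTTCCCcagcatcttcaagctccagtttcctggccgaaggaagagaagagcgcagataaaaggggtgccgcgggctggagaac
Cxcl10: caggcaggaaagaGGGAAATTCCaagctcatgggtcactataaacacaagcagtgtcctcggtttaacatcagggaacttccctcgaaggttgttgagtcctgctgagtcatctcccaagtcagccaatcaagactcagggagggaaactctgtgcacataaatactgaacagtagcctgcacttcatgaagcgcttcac
Cxcl11: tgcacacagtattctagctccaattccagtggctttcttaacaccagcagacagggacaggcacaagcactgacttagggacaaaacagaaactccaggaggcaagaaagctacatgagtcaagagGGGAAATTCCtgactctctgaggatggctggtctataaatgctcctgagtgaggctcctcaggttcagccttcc

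The match begins 84 bases before the start in Cxcl1, 74 in Cxcl2, 88 in Cxcl6, 187 in Cxcl10 and 74 in Cxcl11. Searched on both strands from 250 bases before to 50 after the start, the degenerate NF-kappaB consensus was present in 8 of the 41 member promoters (19.5%; Ccl20, Ccl9, Ccr3 and the 5 above) and in 1400 of all 33469 promoters (4.18%). Both Cxcl10 and Cxcl11, which were not called, and Cxcl1, Cxcl2 and Cxcl6, which rose, held a match, and a match is only a description of these letters.

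In HOMO relative to WT cortex, 36 of the 49 tested members rose, 3 fell and 10 were not called by edgeR's quasi-likelihood test at an adjusted p below 0.05. Of these members 15 passed the filter on low counts only through the HOMO libraries, where they are high, and all 15 rose. They were Ackr2, Ccl1, Ccl9, Ccl17, Ccl22, Ccr3, Ccr4, Ccr6, Ccr7, Ccr9, Cxcl2, Cxcl3, Cxcl6, Cxcl17 and Cxcr2, and the class counts below include them. Among the 34 that also passed with HET and WT libraries alone, 21 rose, 3 fell and 10 were not called. The difference between these genotypes was broad, since 71.7% of all tested genes were called, 37.0% higher and 34.7% lower in HOMO cortex, counted over all genes tested. Counts of classes and of marker lists below stand beside these shares. The median log2 fold change was 2.34 over the tested members, 1.28 over those 34 and 0.04 over all genes. Those that fell were the receptors Ccr10 and Ackr3 and the ligand Ccl5. All 4 HOMO libraries lay above all 4 WT libraries for 35 members (34.2% of all genes) and below them for 1, Ccr10 (32.2%), where 66.4% of all genes did not overlap in either direction. Those 35 include the 15 members admitted only through the HOMO libraries, for which few reads in WT libraries left little scope for overlap. A call with a log2 fold change above 5 was made for 4 members, Cxcl6, Cxcl2, Cxcl3 and Cxcr2, all among those 15, and for 1.25% of all genes. With library size alone in place of TMM the median of all genes moved to 0.65, 40 members were called higher and 1 lower, and calls over all genes were 10292 higher and 2564 lower against 5861 and 5508 with TMM, so a log2 difference under about that shift depends on the scaling. In the authors' deposited table of this comparison, 47 members were listed with 34 called higher and 3 lower, and 1 of those calls, for Cxcl16, differed from that given here.

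**Figure D1:**
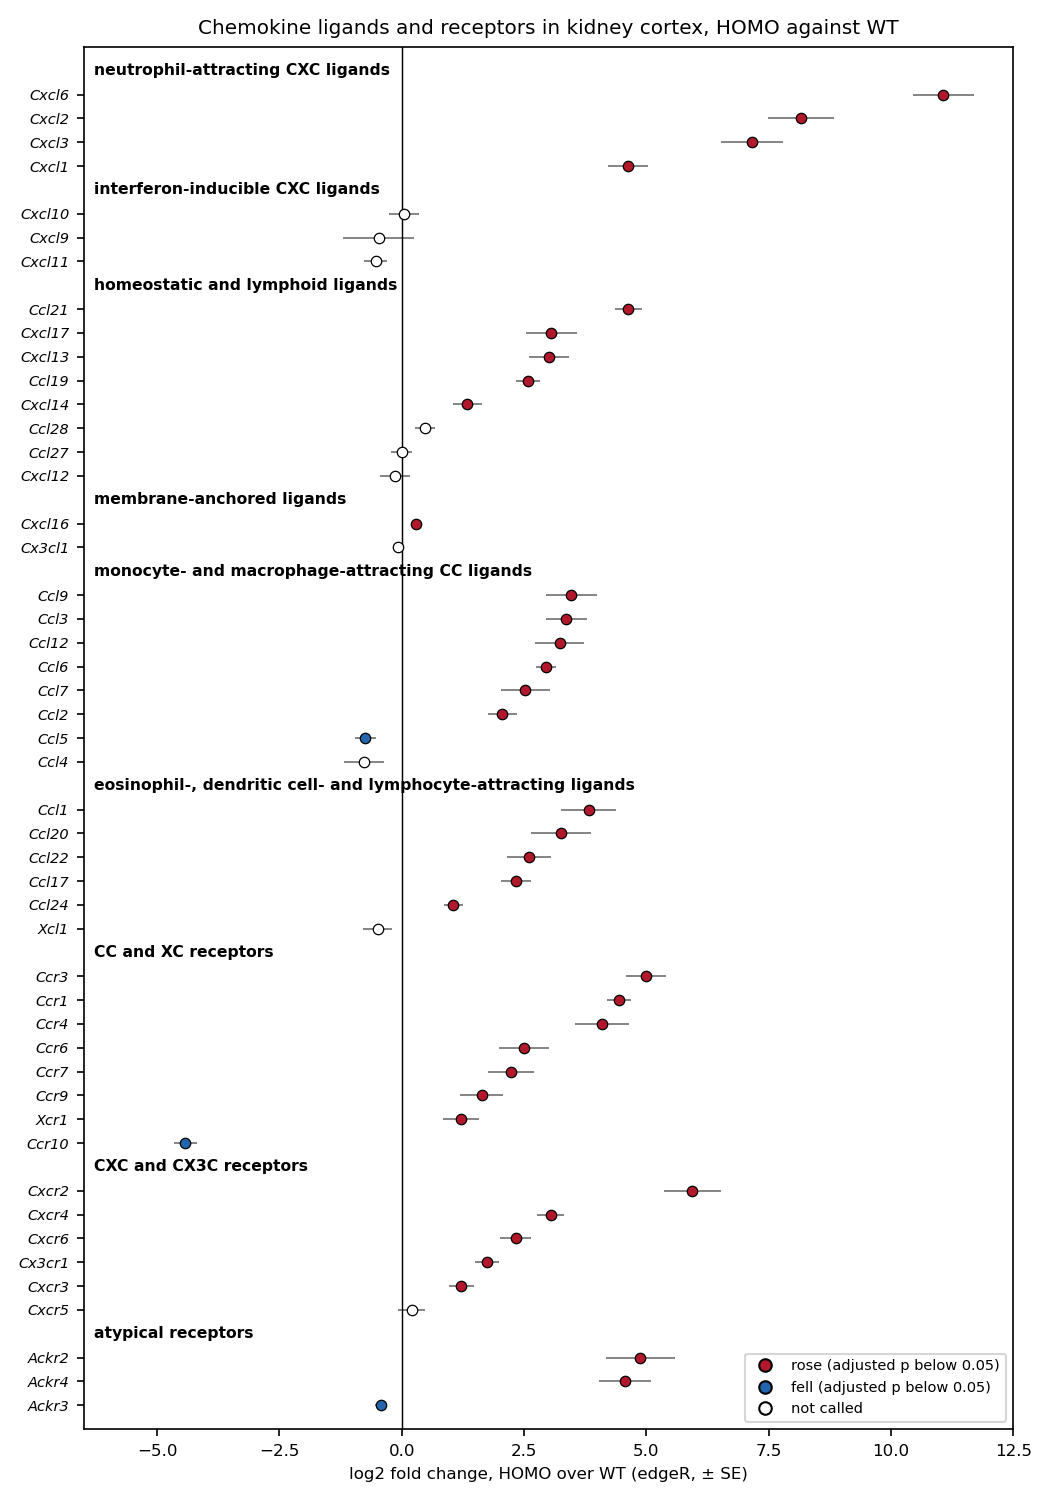
Log2 fold change (x axis, HOMO over WT, edgeR) of the tested chemokine ligands and receptors, 1 receptor left out, in rows by role, with bars of 1 SE and filled points for an adjusted p below 0.05. Points of the 4 neutrophil-attracting CXC ligands lie between 4.62 and 11.07, those of the 3 interferon-inducible ligands between -0.54 and 0.04, and Ccr10 lies at -4.42.

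All 4 neutrophil-attracting CXC ligands rose in HOMO cortex, with a median log2 fold change of 7.66. Among them Cxcl2, Cxcl3 and Cxcl6 passed the filter on low counts only through the HOMO libraries. Cxcl6, in rats a ligand of CXCR2 on neutrophils, measured 25.2, 15.6, 31.0 and 38.3 CPM in HOMO, 0, 0, 0.0436 and 0.184 CPM in HET, and 0, 0, 0.0378 and 0 CPM in WT libraries. That is 4516 reads over the HOMO libraries and 1 over the WT libraries, a ratio of 3055 with an exact 95% interval of 548 to 120706 that covers counting error only. The fitted log2 fold change was 11.07 ± 0.63 (adjusted p = 1.28e-08) and 12.78 without WT replicate 3, the library with the 1 read. Cxcl6 was thus near absent from HET and WT cortex and, among the 49 tested members, had the largest fitted fold change.

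Cxcl2, a ligand that activated macrophages and epithelial cells release early in inflammation, measured 9.31, 3.96, 18.2 and 13.3 CPM in HOMO, 0.0623, 0.150, 0 and 0.0613 CPM in HET, and 0.0635, 0.0423, 0 and 0.0315 CPM in WT libraries. Its mean was 326 times as high in HOMO as in WT cortex, and the log2 fold change was 8.16 ± 0.67 (adjusted p = 3.09e-07). Cxcl1, the main neutrophil attractant of rodents, measured 8.17, 5.45, 15.5 and 12.8 CPM in HOMO, 0.654, 0.3, 0.786 and 0.735 CPM in HET, and 0.254, 0.338, 0.454 and 0.629 CPM in WT libraries. Unlike Cxcl6 it was detected in every library, and it rose by 4.62 ± 0.40 (adjusted p = 3.82e-07). Cxcl3, a close relative of Cxcl1 and Cxcl2, measured 3.72, 2.34, 6.23 and 5.29 CPM in HOMO, 0 CPM in all HET, and 0, 0.0423, 0.0756 and 0 CPM in WT libraries. Its 740 reads in HOMO and 3 reads in WT libraries give a ratio of 167 (exact 95% interval 56.9 to 811), and against the floor of 3 reads over the HET libraries it was at least 144-fold higher. The fitted log2 fold change over WT was 7.16 ± 0.63 (adjusted p = 3.10e-06), and 8.14 without WT replicate 3. How the counting treated any reads shared between these related neighbours is not given in the sources used here, so the levels of single members are uncertain.

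Cxcr2, the receptor through which neutrophils read all 4 of these ligands, measured 5.31, 4.03, 4.89 and 8.17 CPM in HOMO, 0.592, 0.0375, 0.0873 and 0.245 CPM in HET, and 0.127, 0.0423, 0.0756 and 0.0944 CPM in WT libraries. It rose by 5.93 ± 0.58 over WT (adjusted p = 1.13e-06), with no overlap of HOMO and WT libraries. Cxcr1, the second receptor for CXCL6, was below the filter with 7 reads in HOMO and 0 in HET and in WT libraries, at least 1.58-fold higher than the WT floor of 3 reads over the group. Of 7 neutrophil markers 4 were tested and all 4 rose. Their list summed to 101 to 219 CPM in HOMO, 2.44 to 15.2 CPM in HET and 1.90 to 3.65 CPM in WT libraries. Whether these markers passed the filter on low counts only through the HOMO libraries was not examined. The rise of a marker that did so was close to fixed in advance. The granule genes Mpo and Elane were at 0 in WT libraries, and their levels in HOMO libraries are not given here. S100a8 averaged 37.2 ± 17.4 CPM in HOMO and 0.510 ± 0.0641 CPM in WT cortex (SD, n = 4 each), a rise of 6.17 ± 0.40, S100a9 rose by 6.25 ± 0.43 and Csf3r by 4.45 ± 0.37. The part of neutrophil number in the level of Cxcr2 was not tested.

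None of the 3 interferon-inducible ligands was called with all 12 libraries, TMM and no replicate block. Cxcl10 measured 15.2, 10.1, 13.4 and 4.61 CPM in HOMO, 10.9, 8.85, 7.94 and 7.91 CPM in HET, and 12.8, 8.08, 7.75 and 13.5 CPM in WT libraries, with overlapping groups and a log2 difference of 0.04 ± 0.31 (adjusted p = 0.914). Cxcl11 measured 8.05, 7.69, 10.3 and 3.93 CPM in HOMO, 12.1, 11.5, 7.68 and 12.6 CPM in HET, and 11.7, 11.5, 10.5 and 9.94 CPM in WT libraries, a log2 difference of -0.54 ± 0.23 (adjusted p = 0.0562). By edgeR, Cxcl11 was called lower without HET replicate 4 (adjusted p = 0.0408) and without the library labelled HOMO replicate 3 (adjusted p = 0.0135). The same call was made without HOMO replicates 1 and 3 together (-0.90, adjusted p = 0.00947) and with the replicate block (-0.61, adjusted p = 0.0128). Under DESeq2 it was called lower too (adjusted p = 0.0399). Its sign turned with library size alone (0.08).

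Cxcl9 measured 3.86, 1.16, 0.3 and 0.169 CPM in HOMO, 2.77, 1.27, 1.27 and 1.10 CPM in HET, and 2.38, 1.44, 1.59 and 2.33 CPM in WT libraries. HOMO replicate 1, the library with fat and urothelial transcripts, was the highest of all 12 libraries and the library labelled HOMO replicate 3 and HOMO replicate 4 were the lowest. By edgeR, the log2 difference was -0.48 ± 0.72 (adjusted p = 0.567) with HOMO replicate 1 and -1.81 (adjusted p = 0.0119) without it. Without HOMO replicates 1 and 3 together it was -1.50 (adjusted p = 0.0498), and with library size alone 0.13. Their receptor Cxcr3, carried by activated T cells, rose by 1.21 ± 0.25 (adjusted p = 7.93e-04) and averaged 2.22 ± 0.513 CPM in HOMO, 0.958 ± 0.155 CPM in HET and 0.950 ± 0.234 CPM in WT cortex (SD, n = 4 each). Ifng, whose product induces all 3 ligands, was below the filter at 0.0288 ± 0.0195 CPM in HOMO, 0.00779 ± 0.0156 CPM in HET and 0.0318 ± 0.0635 CPM in WT cortex (SD, n = 4 each). Cxcl10 and Cxcl11 overlap Art3 in the RefSeq annotation, and strand use in counting is not given in the sources used here.

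**Figure D2:**
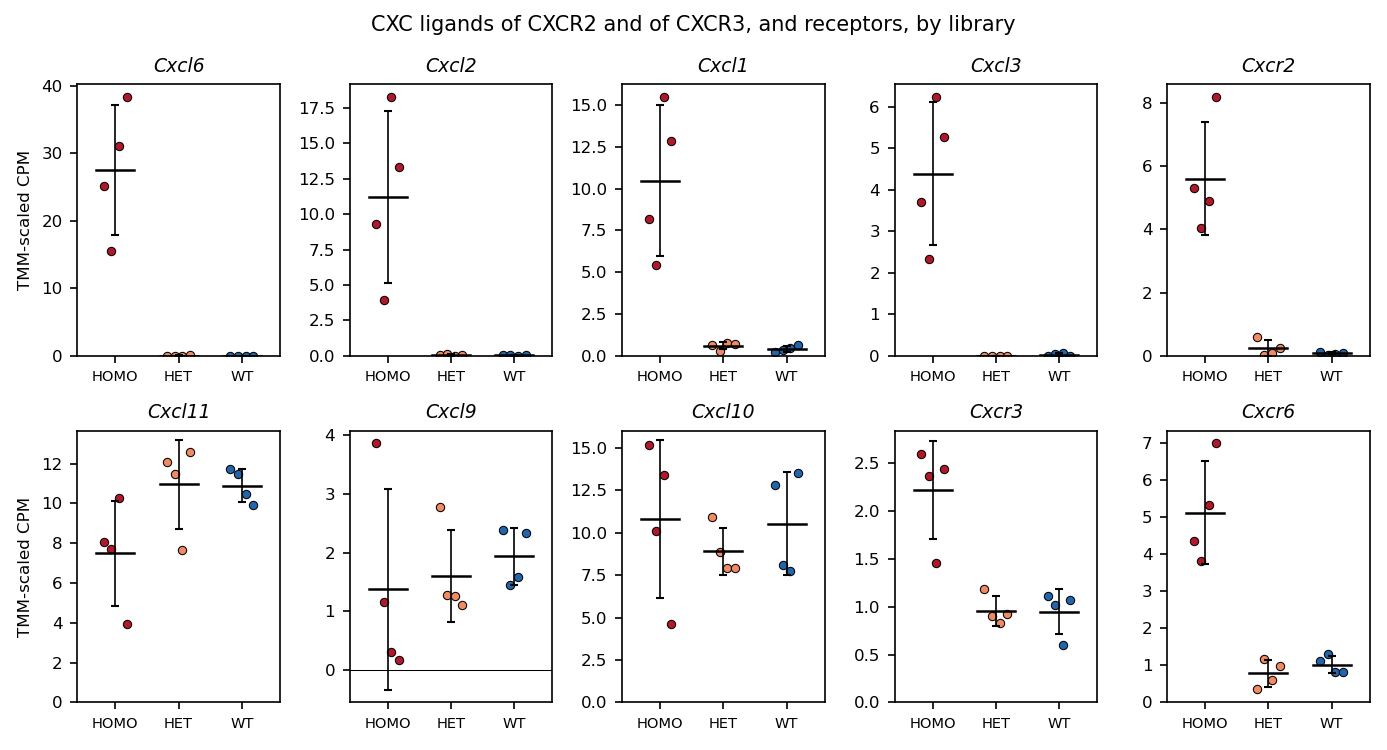
TMM-scaled CPM (y axis, linear, its own scale in each panel) of CXC ligands and receptors in each library, by genotype, with the mean as a line and 1 SD as a bar. Cxcl6, Cxcl2, Cxcl1, Cxcl3 and Cxcr2 in the upper row are higher in all 4 HOMO libraries than in any HET or WT library, while Cxcl11, Cxcl9 and Cxcl10 in the lower row overlap between genotypes; the HOMO bar of Cxcl9 runs below 0 since its SD exceeds its mean.

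Among ligands known from lymphoid tissue and steady-state tissues, 5 of 8 tested rose in HOMO cortex and none fell, with a median of 1.96. Over all genes 37.0% were called higher, and Cxcl17 passed the filter on low counts only through the HOMO libraries. Ccl21, which lymphatic endothelium and lymphoid stroma release to draw T cells and dendritic cells, measured 176, 234, 246 and 213 CPM in HOMO, 8.10, 9.86, 8.12 and 13.2 CPM in HET, and 5.75, 6.09, 12.1 and 11.2 CPM in WT libraries. It rose by 4.63 ± 0.27 (adjusted p = 2.63e-08), and the lowest HOMO library was far above every other library. Ccl19, which shares the receptor CCR7 with CCL21, measured 13.8, 14.1, 10.2 and 11 CPM in HOMO, 2.90, 1.24, 1.96 and 2.33 CPM in HET, and 1.56, 1.95, 2.04 and 2.71 CPM in WT libraries, a rise of 2.57 ± 0.24 (adjusted p = 7.29e-07). Cxcl13, the ligand that gathers B cells into follicles, measured 18.0, 11.9, 4.97 and 16.4 CPM in HOMO, 3.12, 1.12, 1.31 and 1.29 CPM in HET, and 1.40, 1.90, 1.40 and 1.67 CPM in WT libraries. It rose by 3.01 ± 0.42 (adjusted p = 3.16e-05), was lowest among HOMO libraries in the one labelled HOMO replicate 3, and rose by 3.27 without that library.

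Cxcl17, a mucosal ligand, rose by 3.05 ± 0.52 from a low level, and Cxcl14, made by epithelia, by 1.34 ± 0.30. Cxcl12, the ligand of CXCR4 that stromal cells make at rest, was abundant and not called: it measured 188, 183, 53.8 and 126 CPM in HOMO, 147, 129, 119 and 113 CPM in HET, and 187, 134, 136 and 150.1 CPM in WT libraries. The lowest value belonged to the library labelled HOMO replicate 3, and the log2 difference was -0.14 ± 0.30 (adjusted p = 0.695) with it, 0.12 without it and 0.47 with library size alone. The epithelial ligands Ccl27 and Ccl28 differed by 0.00 and 0.47 and were not called (adjusted p = 0.986 and 0.0514). Ccl28 was called higher without HOMO replicate 2 (0.61, adjusted p = 0.0118), under DESeq2 (0.47, adjusted p = 0.0465) and with library size alone (1.08, adjusted p = 2.25e-04). Ccl27 was called higher with library size alone (0.61, adjusted p = 0.0245 by edgeR), and it overlaps Il11ra1 in the RefSeq annotation.

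Lymphatic endothelium markers moved beside Ccl21. Of 4 markers 3 rose, Flt4 by 1.56 ± 0.23, Pdpn by 0.80 ± 0.12 and Lyve1 by 1.71 ± 0.26, while Prox1, the transcription factor that defines this endothelium, differed by 0.16 ± 0.20 (adjusted p = 0.503). Their sum was 117 to 149 CPM in HOMO, 57.5 to 84.1 CPM in HET and 50.7 to 68.2 CPM in WT libraries, a smaller difference than that of Ccl21, and their part in its level was not tested.

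Both membrane-anchored ligands kept high levels in all genotypes. Cxcl16, which is shed by ADAM10 and binds CXCR6 on T cells, measured 202, 220.3, 197 and 213 CPM in HOMO, 185, 173, 165 and 165 CPM in HET, and 176, 193, 143 and 169 CPM in WT libraries. HOMO libraries lay above all others, and HET and WT libraries overlapped. The rise over WT was 0.29 ± 0.09 (adjusted p = 0.00996 by edgeR), while the authors' deposited table gave 0.29 with no call. In the RefSeq annotation Cxcl16 overlaps Zmynd15, and strand use in counting is not given in the sources used here. Cx3cl1, fractalkine, which endothelium and tubule cells display to monocytes and natural killer cells, measured 100.3, 95, 95.8 and 91.7 CPM in HOMO, 96.7, 94.8, 84.8 and 85.7 CPM in HET, and 124, 98.4, 82.6 and 98.6 CPM in WT libraries. Its log2 difference was -0.07 ± 0.10 (adjusted p = 0.525), and with library size alone it was called higher (0.53, adjusted p = 6.63e-04).

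Of 8 CC ligands that attract monocytes and macrophages, 6 rose, 1 fell and 1 was not called, with a median of 2.74. Over all genes 37.0% were called higher, and Ccl9 passed the filter on low counts only through the HOMO libraries. Ccl6, a rodent ligand of CCR1, measured 50.7, 61.9, 78.6 and 55.4 CPM in HOMO, 8.82, 14.7, 8.25 and 10.7 CPM in HET, and 9.62, 8.17, 7.26 and 6.83 CPM in WT libraries, and rose by 2.95 ± 0.20 (adjusted p = 4.45e-08). Ccl3, which acts at CCR1 on monocytes, measured 6.13, 3.83, 17.8 and 10.4 CPM in HOMO, 1.12, 0.750, 1 and 0.735 CPM in HET, and 0.984, 1.02, 0.718 and 0.975 CPM in WT libraries. It rose by 3.37 ± 0.42 (adjusted p = 1.09e-05) and varied several-fold among HOMO libraries, highest in the one labelled replicate 3. Ccl2, the main attractant of CCR2-bearing monocytes, measured 30.0, 28.7, 29.9 and 48.3 CPM in HOMO, 9.75, 4.46, 6.63 and 5.27 CPM in HET, and 6.67, 7.49, 5.94 and 12.7 CPM in WT libraries, a rise of 2.06 ± 0.29 (adjusted p = 4.58e-05).

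Ccl9, Ccl12 and Ccl7 rose by 3.46 ± 0.52, 3.23 ± 0.51 and 2.52 ± 0.50, and without WT replicate 4 the rises of Ccl12 and Ccl7 were 3.91 and 3.45. Ccl5, which T cells and natural killer cells release and which binds CCR1 and CCR3, went the other way. It measured 2.29, 2.80, 1.68 and 1.97 CPM in HOMO, 4.24, 3.94, 2.97 and 4.23 CPM in HET, and 3.62, 4.65, 2.53 and 3.87 CPM in WT libraries. Ccl5 fell by 0.75 ± 0.22 on the log2 scale (adjusted p = 0.00759), though one HOMO library overlapped the WT range, and the call was lost with library size alone (-0.13, adjusted p = 0.587) and without HOMO replicates 1 and 3 together (-0.62, adjusted p = 0.0610). Ccl4, from the same group of genes on chromosome 10, differed by -0.78 ± 0.41 and was not called (adjusted p = 0.104), except without HET replicate 1 (adjusted p = 0.0462).

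Markers of the white blood cells that release or read these ligands are given beside them. All 8 macrophage markers rose, with sums of 874 to 1299.5 CPM in HOMO, 120 to 159 CPM in HET and 105 to 171 CPM in WT libraries, led by Mrc1 (4.65 ± 0.23), C1qa (2.95 ± 0.16) and Cd68 (3.40 ± 0.21). All 8 T cell markers rose as well, with sums of 93.0 to 126 CPM in HOMO, 19.9 to 27.8 CPM in HET and 13.9 to 26.5 CPM in WT libraries. Of 6 natural killer cell markers 5 were tested and 0 were called, Gzmb was at 0 in every library, and the sums of 7.21 to 16.2 CPM in HOMO, 10.1 to 11.5 CPM in HET and 8.13 to 13.7 CPM in WT libraries overlapped. The part of these cell types in the ligand levels was not tested.

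Ligands for eosinophils, dendritic cells and lymphocytes rose in 5 of 6 tested cases, with a median of 2.47, where 37.0% of all genes were called higher. Among them Ccl1, Ccl17 and Ccl22 passed the filter on low counts only through the HOMO libraries. Ccl17, which draws T helper cells through CCR4, measured 1.73, 2.24, 2.04 and 2.2 CPM in HOMO, 0.312, 0.450, 0.262 and 0.368 CPM in HET, and 0.286, 0.423, 0.227 and 0.661 CPM in WT libraries, and rose by 2.34 ± 0.31 (adjusted p = 1.48e-05). Ccl22, which shares that receptor and is made by dendritic cells and macrophages, measured 1.18, 1.99, 2.08 and 1.25 CPM in HOMO, 0.312, 0.225, 0.0873 and 0.184 CPM in HET, and 0.127, 0.550, 0.302 and 0.126 CPM in WT libraries, a rise of 2.6 ± 0.45 (adjusted p = 1.76e-04). Ccl1, the ligand of CCR8, measured 0.929, 0.504, 0.661 and 1.15 CPM in HOMO, 0.0935, 0.0750, 0.218 and 0.123 CPM in HET, and 0.0635, 0.127, 0 and 0.0315 CPM in WT libraries. It rose by 3.82 ± 0.56 (adjusted p = 3.97e-05), and by 4.44 without WT replicate 2.

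Ccl20, the ligand of CCR6 on T helper cells and dendritic cell precursors, rose by 3.25 ± 0.62 (adjusted p = 5.22e-04), and by 2.64 without HOMO replicates 1 and 3 together. Ccl24, which draws eosinophils through CCR3, rose by 1.05 ± 0.20. Xcl1, which natural killer and CD8 T cells release to draw cross-presenting dendritic cells, differed by -0.49 ± 0.30 and was not called (adjusted p = 0.149). Ccl11, the classical eosinophil attractant, was below the filter: it had 42, 26, 3 and 10 reads in HOMO, 3, 3, 0 and 0 reads in HET, and 1, 1, 1 and 2 reads in WT libraries, and the HOMO library with 3 reads was the one labelled replicate 3. Ccl25 had 3 reads in HOMO, 5 in HET and 5 in WT libraries, and Ccl26 had 1 read in HOMO and 0 in HET and in WT libraries.

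Of 9 tested CC and XC receptors, 8 rose and 1 fell in HOMO relative to WT cortex, with a median of 2.23, where 37.0% of all genes were called higher. Of those that rose, Ccr3, Ccr4, Ccr6, Ccr7 and Ccr9 passed the filter on low counts only through the HOMO libraries. Ccr10, known from skin-homing T cells and IgA plasma cells, was the receptor that fell. It measured 0.950, 0.529, 0.461 and 0.610 CPM in HOMO, 19.2, 15.6, 12 and 12.4 CPM in HET, and 12.3, 16.1, 13.4 and 13.6 CPM in WT libraries. HOMO cortex held 4.60% of the WT mean, the log2 fold change was -4.42 ± 0.23 (adjusted p = 3.74e-09), and Ccr10 had the smallest p of all tested members. Its listed start is at 89086556 on chromosome 10. In the RefSeq annotation Ccr10 overlaps Cntnap1, which fell by 1.33 ± 0.17 on the log2 scale to 14.9 ± 3.02 CPM in HOMO, against 37.2 ± 6.59 CPM in WT cortex (SD, n = 4 each), and its neighbour Plekhh3 fell by 0.46 ± 0.10. Which strand was counted is not given in the sources used here, so reads of Ccr10 and Cntnap1 cannot be told apart with certainty. Plasma cell markers, 2 of 2 tested, rose, Jchain by 3.55 ± 0.41, and whether they passed the filter only through the HOMO libraries was not examined.

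Ccr1, carried by monocytes, macrophages and neutrophils, measured 7.70, 5.75, 9.79 and 9.96 CPM in HOMO, 0.436, 0.450, 0.393 and 0.368 CPM in HET, and 0.413, 0.465, 0.227 and 0.409 CPM in WT libraries, and rose by 4.44 ± 0.25 (adjusted p = 6.46e-09). Ccr3, the eosinophil receptor, measured 3.10, 2.75, 2.68 and 4.51 CPM in HOMO, 0.0312, 0.0750, 0.0436 and 0.123 CPM in HET, and 0.0953, 0.212, 0.0756 and 0.0315 CPM in WT libraries, and rose by 4.99 ± 0.41 (adjusted p = 1.95e-07). In the RefSeq annotation Ccr3 overlaps Ccr1l1, and strand use in counting is not given in the sources used here, so its level is uncertain. Among the other CC receptors the rise was 4.09 ± 0.55 for Ccr4, 2.50 ± 0.52 for Ccr6, 2.23 ± 0.47 for Ccr7 and 1.63 ± 0.44 for Ccr9. Without WT replicate 1 the rise of Ccr6 was 3.10. Xcr1, the mark of cross-presenting dendritic cells, rose by 1.21 ± 0.37 (adjusted p = 0.0103) with overlapping HOMO and WT libraries. Ccr8, of regulatory and T helper cells, was below the filter with 29, 18, 9 and 7 reads in HOMO libraries, 1 read in HET libraries and 0 in WT libraries, at least 14.2-fold higher in HOMO than the WT floor of 3 reads over the group.

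Of 6 tested CXC and CX3C receptors 5 rose, where 37.0% of all genes were called higher. Among them Cxcr2 passed the filter on low counts only through the HOMO libraries. Cxcr4, the receptor of CXCL12 on most white blood cells, measured 15.3, 17.4, 33.4 and 21.9 CPM in HOMO, 2.37, 4.2, 2.23 and 2.51 CPM in HET, and 2.98, 3.13, 2.15 and 2.39 CPM in WT libraries, and rose by 3.05 ± 0.27 (adjusted p = 5.78e-07). Cxcr6, of tissue-resident T cells, measured 4.34, 3.81, 5.33 and 6.98 CPM in HOMO, 0.374, 1.16, 0.611 and 0.981 CPM in HET, and 1.11, 1.31, 0.832 and 0.818 CPM in WT libraries, and rose by 2.33 ± 0.32 (adjusted p = 2.17e-05); it overlaps Fyco1. Cx3cr1, the fractalkine receptor of monocytes and resident macrophages, rose by 1.74 ± 0.24. Cxcr5, the follicle-homing receptor of B cells, was not called (0.20 ± 0.28, adjusted p = 0.529), though all 4 tested B cell markers rose, with sums of 4.91 to 8.80 CPM in HOMO, 1 to 1.93 CPM in HET and 0.643 to 1.17 CPM in WT libraries. Whether these low markers passed the filter only through the HOMO libraries was not examined. With library size alone Cxcr5 was called higher (0.81), and it overlaps Bcl9l.

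Among the atypical receptors, which take up ligands without G protein signalling, 2 rose and 1 fell. Of these, Ackr2 passed the filter on low counts only through the HOMO libraries. Ackr4, the scavenger of CCL19, CCL21 and CCL25, measured 11.7, 6.48, 2.76 and 11.8 CPM in HOMO, 0.405, 0.375, 0.393 and 0.306 CPM in HET, and 0.191, 0.0846, 0.529 and 0.535 CPM in WT libraries. It rose by 4.57 ± 0.54 (adjusted p = 7.26e-06) and was lowest among HOMO libraries in the one labelled replicate 3. Ackr4 overlaps Acad11, which fell to 31.5 ± 8.89 CPM in HOMO, against 85.5 ± 4.40 CPM in WT cortex (SD, n = 4 each).

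Ackr2, the scavenger of inflammatory CC ligands on lymphatic endothelium, measured 1.28, 0.908, 3.98 and 1.42 CPM in HOMO, 0.0935, 0, 0 and 0.0613 CPM in HET, and 0.0635, 0, 0.0756 and 0.0944 CPM in WT libraries. Its rise was 4.88 ± 0.71 (adjusted p = 3.64e-05), and 4.2 without the library labelled HOMO replicate 3, which was the highest. Ackr3, the scavenger of CXCL12 and CXCL11, measured 31.9, 32.0, 38.2 and 33.1 CPM in HOMO, 43.7, 45.1, 32.6 and 47.2 CPM in HET, and 52.3, 48.5, 38.1 and 42.1 CPM in WT libraries. It fell by 0.42 ± 0.12 on the log2 scale (adjusted p = 0.00825) with TMM, its groups overlapped, and its sign turned with library size alone (0.19, adjusted p = 0.176).

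**Figure D3:**
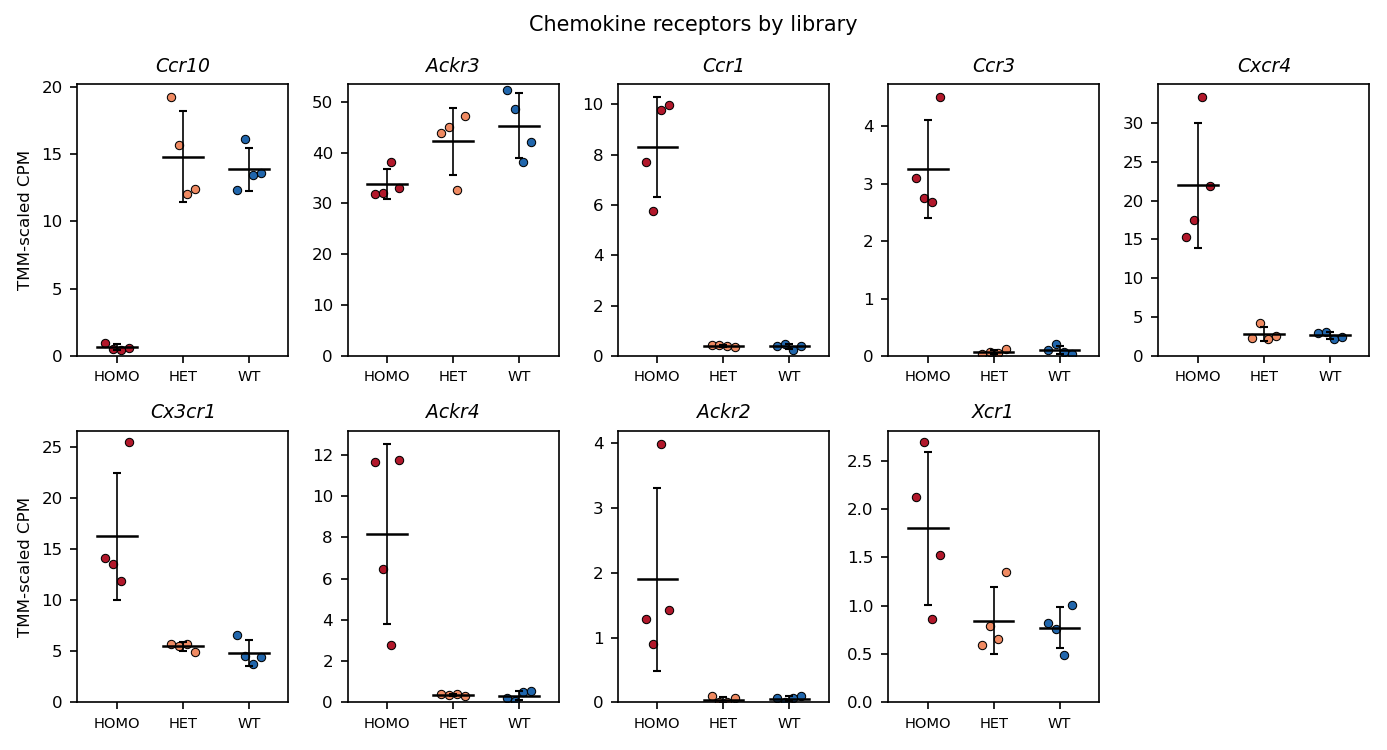
TMM-scaled CPM (y axis, linear, its own scale in each panel) of 9 chemokine receptors in each library, by genotype, with the mean as a line and 1 SD as a bar. Ccr10 lies below 1 CPM in all 4 HOMO libraries and at about 12 CPM or more in HET and WT libraries, the ranges of Ackr3 and of Xcr1 overlap between genotypes, and Ccr1, Ccr3, Cxcr4, Cx3cr1, Ackr4 and Ackr2 are higher in every HOMO library than in any other.

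Textbook pairs of a ligand and its receptor were then read together. Of 41 pairs, 31 had both partners tested. In 18 of these both partners rose in HOMO relative to WT cortex, in 8 the receptor rose without the ligand, in 1 the ligand rose without the receptor, and in 4 neither rose. Pairs share members, so these counts are not independent, and with 37.0% of all genes called higher they are a description. Many of the pairs also hold a member that passed the filter on low counts only through the HOMO libraries. The rise of such a member was close to fixed in advance. This holds for every tested pair with Cxcr2, Ccr3, Ccr4, Ccr6, Ccr7 or Ackr2 and for Ccl9 with Ccr1. Both partners rose, among others, for the 4 ligands of Cxcr2, for Ccl19 and Ccl21 with Ccr7 and with Ackr4, for Ccl17 and Ccl22 with Ccr4, for Ccl20 with Ccr6, for Cxcl16 with Cxcr6 and for Ccl2 with Ackr2. A receptor rose beside a ligand that was not called for Cxcl9, Cxcl10 and Cxcl11 with Cxcr3, Cxcl12 with Cxcr4, Cx3cl1 with Cx3cr1 and Xcl1 with Xcr1, and beside a ligand that fell for Ccl5 with Ccr1 and Ccr3. Cxcl13 rose while Cxcr5 was not called. Neither partner rose for Ccl27 and Ccl28 with Ccr10 or for Cxcl11 and Cxcl12 with Ackr3, where the receptor fell in each case.

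**Figure D4:**
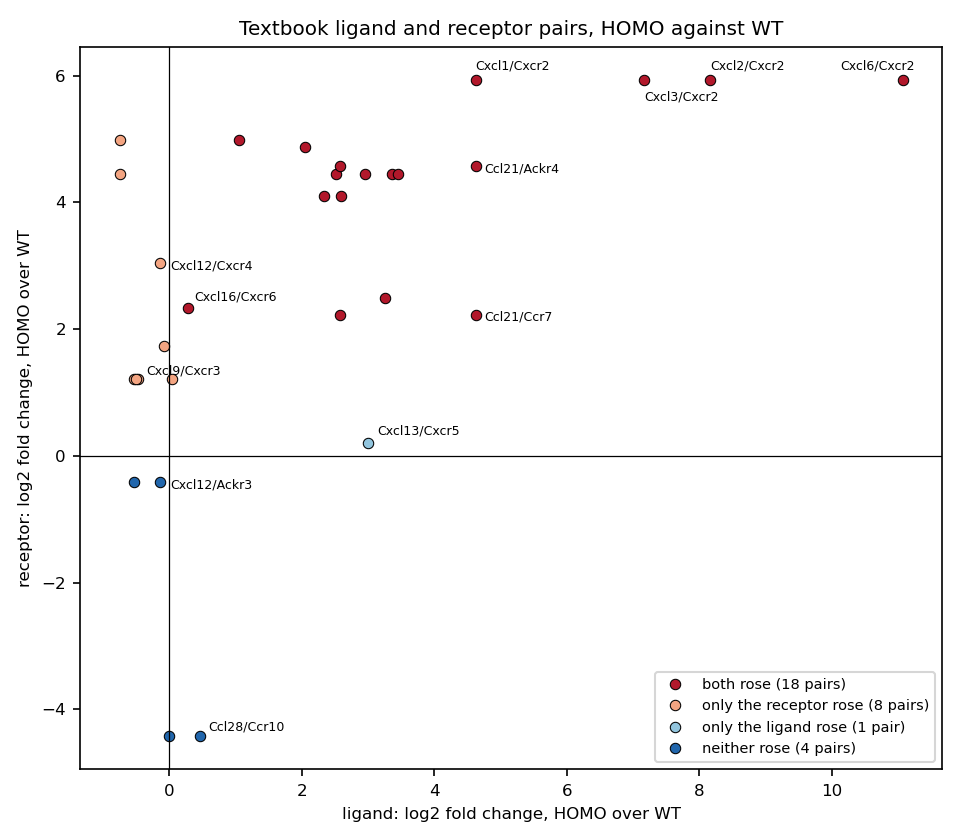
Log2 fold change (HOMO over WT, edgeR) of the receptor (y axis) against that of the ligand (x axis) for the 31 pairs with both partners tested, coloured by which partner rose at an adjusted p below 0.05. The 4 ligands of Cxcr2 lie at the top right, the pairs with Cxcr3 lie left of or near 0 on the ligand axis, and the Ccr10 pairs lie at -4.42 on the receptor axis.

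Read as a share of all chemokine transcripts per kilobase of listed gene length, the mixture of ligands differed between the genotypes. Ccl21 held 38.1% ± 3.84 of summed ligand CPM per kb in HOMO, 5.21% ± 1.41 in HET and 4.64% ± 2.11 in WT libraries (SD, n = 4 each). Cxcl16 held 18.0% ± 1.44 in HOMO, 44.5% ± 1.34 in HET and 43.0% ± 3.10 in WT libraries, although its level in CPM rose in HOMO cortex. Cx3cl1 held 4.51% in HOMO, 12.8% in HET and 13.8% in WT libraries, and Cxcl12 held 3.81% in HOMO, 10.3% in HET and 12.1% in WT libraries. The order of mean levels per kb in HOMO cortex began with Ccl21, Cxcl16, Ccl6 and Ccl2, and in HET and in WT cortex with Cxcl16, Cx3cl1, Cxcl12 and Ccl21. In HOMO cortex Ccl6 (44.9 ± 8.87 CPM per kb) and Ccl2 (41.0 ± 11.3) lay within each other's spread, as did Cx3cl1 (30.6 ± 1.13) and Cxcl12 (25.4 ± 11.5). In WT cortex Cx3cl1 (32.2 ± 5.41 CPM per kb) and Cxcl12 (28.0 ± 4.49) did so too. Summed ligand levels were 914 ± 23.9 CPM in HOMO, 464 ± 36.9 CPM in HET and 496 ± 54.1 CPM in WT cortex.

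Receptor transcripts were led on average by Ackr3 in all genotypes, at 22.7% ± 2.58 of summed receptor CPM per kb in HOMO, 52.6% ± 3.47 in HET and 55.3% ± 0.824 in WT libraries. Ccr10 came second in HET (20.5% ± 3.21) and WT cortex (19.1% ± 3.05), and Cxcr4 in HOMO cortex, with 16.1% ± 5.21 in HOMO, 3.91% ± 1.08 in HET and 3.60% ± 0.215 in WT libraries. Within the HOMO order Cxcr4 (12.6 ± 4.61 CPM per kb) and Cx3cr1 (12.3 ± 4.70) did not differ beyond their spread. In HOMO replicate 4 Cx3cr1 came first, with 21.3%, against 18.9% for Ackr3. Summed receptor levels were 139 ± 13.8 CPM in HOMO, 76.2 ± 9.56 CPM in HET and 78.5 ± 10.8 CPM in WT cortex.

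**Figure D5:**
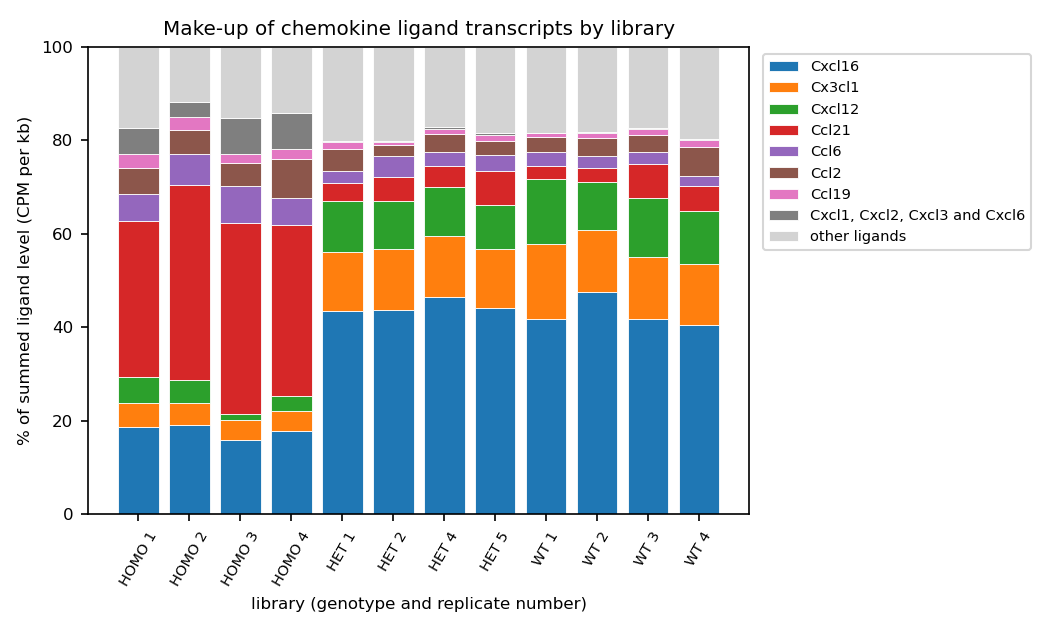
Share of summed chemokine ligand level (y axis, % of CPM per kb of listed gene length) taken by named ligands in each of the 12 libraries (x axis), stacked to 100%. Ccl21 makes up the largest part in all 4 HOMO libraries, at 38.1% on average, and Cxcl16 in all HET and WT libraries, at 44.5% and 43.0%.

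One mutated allele went without any called member. In HET relative to WT cortex, 0 of 49 tested members and 0 of 15856 genes (0%) were called by edgeR, 0 members and 318 genes had an unadjusted p below 0.05, and DESeq2 called 1 gene, which is no member. The 15 members that passed the filter only through the HOMO libraries had few reads in HET and WT libraries and little scope for a call, so the count rests on the other 34. Non-overlapping HET and WT libraries were found for 0 members and for 1.62% of all genes, 0.877% with HET higher and 0.744% with HET lower. The median log2 fold change was 0.01 over members and 0.00 over all genes. The members with the smallest p were Ccl6 (log2 difference 0.41 ± 0.19), Cxcr2 (1.5 ± 0.71) and Cxcl3 (-2.95 ± 1.69), each with an adjusted p of 1 in edgeR's test. Cxcr2 was highest among HET libraries in replicate 1, at 0.592 CPM. Its log2 difference was 0.31 without that library, which held 15.2 CPM of neutrophil markers against 2.44 to 4.93 CPM in the other HET libraries. The Cxcl3 value rests on 0 reads in HET and 3 in WT libraries, both at or under the floor. A p above the threshold does not show that HET and WT cortex had equal levels: for Cxcl6 the ratio of HET to WT was 4.63 with an exact 95% interval of 0.458 to 228 on 4 and 1 reads.

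In HOMO relative to HET cortex, 36 of 49 members rose and 3 fell, beside 70.6% of all genes called, 36.2% of genes higher and 34.5% lower. The same 15 members all rose, and of the other 34, 21 rose and 3 fell. The median over members was 2.54, also with Cxcl3 set at its bound, 1.16 over those 34 and 0.04 over all genes. This comparison shares the HOMO libraries with the one against WT cortex and is no second test of them. The smallest p-values belonged to Ccr10 (-4.53 ± 0.23, adjusted p = 3.09e-09), Ccr1 (4.31 ± 0.25, adjusted p = 8.50e-09) and Cxcl6 (9.24 ± 0.55, adjusted p = 1.85e-08; 10.73 without HET replicate 5). Libraries did not overlap for 33 members that were higher (32.7% of all genes) and 2 that were lower, Ccr10 and Ccl5 (31.7%), beside 64.4% of all genes in either direction. Those 33 include the same 15 members. Ccl20 overlapped because HET replicate 2 held 5.55 CPM, against 0.797 to 1.62 CPM in the other HET libraries, and rose by 2.51 ± 0.59, or 3.45 without that library. Ackr3 fell by 0.32 ± 0.12 on the log2 scale (adjusted p = 0.0354). That call was lost without HET replicate 1, 2 or 5 or HOMO replicate 1, 2 or 4 (adjusted p = 0.0686 to 0.0934), with the replicate block (-0.24, adjusted p = 0.149) and without HOMO replicates 1 and 3 together (adjusted p = 0.0519), and the sign turned with library size alone (0.31, adjusted p = 0.0359). Xcr1 rose by 1.12 ± 0.38 (adjusted p = 0.0170), a call lost without HET replicate 1 (adjusted p = 0.0552) or HOMO replicate 2 (adjusted p = 0.0635).

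HOMO libraries differed among themselves, and these groupings were read off after the values were seen. HOMO replicate 2 had the lowest value of the 4 for Cxcl1, Cxcl2, Cxcl3, Cxcl6, Ccl3 and Ccl20, and its 4 neutrophil-attracting ligands summed to 27.3 CPM, against 70.9 CPM at the highest among HOMO libraries. Neutrophil markers did not follow that order, being 145, 114, 101 and 219 CPM in HOMO replicates 1 to 4. The library labelled HOMO replicate 3 had the lowest Cxcl13, Ackr4, Ccl12, Cxcl12 and Xcr1 and the highest Ccl3, Ackr2, Cxcr4 and Ccl9 of the HOMO libraries. No test was made within 4 libraries.

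Genes around the chemokine system were counted on lists chosen with earlier results of these data known, beside 37.0% of all genes called higher and 34.7% lower. Of 27 tested genes that carry the receptor signal, 20 rose and 4 fell in HOMO relative to WT cortex (median 1.16), led by the arrestin Arrb2 (1.49 ± 0.09), the white blood cell GTPase Rac2 (2.18 ± 0.16) and the G protein regulator Rgs2 (2.41 ± 0.18). Of 11 genes that cleave or present ligands, 5 rose and 2 fell, so the share that rose was near that of all genes. Dpp4, a brush border peptidase that trims ligands such as CXCL12, averaged 229 ± 28.9 CPM in HOMO and 1219 ± 181 CPM in WT cortex (SD, n = 4 each) and fell by 2.41 ± 0.13 on the log2 scale, while the matrix metalloproteinases Mmp2 and Mmp12 rose by 3.31 ± 0.22 and 4.22 ± 0.28.

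Leukocyte adhesion genes rose in 10 of 11 tested cases (median 2.24), among them the endothelial P-selectin gene Selp, at 10.3 ± 1.42 CPM in HOMO and 0.365 ± 0.112 CPM in WT cortex (SD, n = 4 each; 4.81 ± 0.24), Icam1 (2.02 ± 0.14) and the integrin Itgb7 (3.09 ± 0.25). Receptors for other attractants rose in 7 of 8 cases, among them the complement receptor C5ar1 (2.57 ± 0.23), the leukotriene receptor Ltb4r (5.25 ± 0.67) and Ptafr (1.34 ± 0.18). A list of further chemokine and chemokine-like genes rose in 3 of 4 tested cases: platelet factor 4, Pf4 (3.8 ± 0.29), the atypical receptor Ccrl2 (1.16 ± 0.24), and Cxcl17, counted above. Of 9 tested genes known to induce chemokine genes 8 rose, led by the NF-kappaB subunits Nfkb2 (1.28 ± 0.08) and Relb (1.56 ± 0.12) and by Il1b, which averaged 30.1 ± 10.2 CPM in HOMO, 2.07 ± 0.284 CPM in HET and 2.63 ± 0.610 CPM in WT cortex (SD, n = 4 each; 3.51 ± 0.27). Tnf was below the filter, at 0.0113 ± 0.0132 CPM in HOMO, 0 CPM in HET and 0.0157 ± 0.0315 CPM in WT cortex.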

How the data were processed

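Messenger RNA from kidney cortex was sequenced in 12 libraries, 4 per genotype, from Trizol extracts with a kit that keeps strand, per the protocols in the labels. The authors deposited whole-number read counts per gene for 32623 genes, with 12 RPKM columns in the same table, and 3 tables of pairwise comparisons (log2 fold change, p-value, and a call score of 1, 0 or -1), per the file headers. The submitters' processing notes name Rnor_6.0 and edgeR 3.8.6 without a role, and for the aligner, counter, annotation and strand setting nothing is stated in those notes or labels. RPKM equalled count over listed length and library total with a median deviation of 0.0416%, so the RPKM values the authors deposited were used only for that check.

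The filter was filterByExpr with a minimum count of 10 and a minimum total of 15, which kept 15856 of 22687 genes with a count. They were fitted in 1 edgeR 4.0.16 model (R 4.3.3) with TMM factors, a term per genotype and robust quasi-likelihood F-tests. P-values were adjusted by Benjamini-Hochberg over all genes tested, and "rose", "fell" and "called" mean an adjusted p below 0.05. Errors of log2 fold changes are standard errors, taken as the absolute log2 fold change over the root of F. Levels are TMM-scaled CPM, and levels of different genes were compared only per kb. The model was also run on simulated counts, with an outcome not given here. Few genes changed in that simulation, as many up as down, so it could not test the scaling under a broad difference.

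Members, role classes, pairs and gene lists were chosen with earlier results of these data known, so no p is given for a list. Values in every library are given for the 3 members of each class with the smallest p, for members that fell, and for the 3 smallest p-values against WT in HET libraries; from gene lists, the 3 genes with the smallest p are named. Genes outside this rule (Cxcr3, Prox1, Ifng, Tnf and the overlapping or neighbouring genes) were named after their values were seen. The library values of Cxcl12 and Ccl11 and the HOMO reads of Ccr8 are printed outside this rule as well. No libraries had identical counts, and log2 CPM of replicates correlated at 0.972 to 0.986 in HOMO, 0.977 to 0.987 in HET and 0.975 to 0.990 in WT libraries. Alternatives were RLE size factors, library size alone, no filter, DESeq2 1.42.0, only the libraries compared, a replicate block and leaving out each library; leaving out HOMO replicates 1 and 3 together was chosen after seeing the data. Floors (3 reads over a group) and exact 95% intervals cover counting error only. Promoters came from RefSeq (GRCr8). Single values of 1 receptor, which is in the counts of members, and of 1 listed gene are not reported here, and pairs with that receptor were left out.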

Additional observations from a re-analysis of the deposited data

Results flagged for a closer look

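Among 147 sets of 4 libraries (49 tested members in 3 genotypes), 10 held a library whose gap to its nearest neighbour exceeded Dixon's 95% critical value for 4 samples, where chance flags about 1 in 20 sets. In HOMO libraries, Ackr2 stood at 3.98 CPM in the library labelled replicate 3 (0.908 to 1.42 CPM in the others), and Ccl2 at 48.3 CPM in replicate 4 (28.7 to 30.0 CPM in the others). In HET libraries, replicate 1 stood apart with 3.12 CPM of Cxcl13 (1.12 to 1.31 CPM in the others) and 2.77 CPM of Cxcl9 (1.10 to 1.27 CPM); it also held 159 CPM of fat markers (8.40 to 32.9 CPM in the others) and 15.2 CPM of neutrophil markers (2.44 to 4.93 CPM). Replicate 2 stood apart with 4.2 CPM of Cxcr4 (2.23 to 2.51 CPM). In WT libraries, replicate 3 stood low for Ccl3 at 0.718 CPM (0.975 to 1.02 CPM in the others), Cxcr5 at 0.529 CPM (0.881 to 0.889 CPM) and Cxcl17 at 0 CPM (0.126 to 0.127 CPM), and was the single WT library with Cxcl6, at 0.0378 CPM on 1 read. Replicate 1 stood low for Ccl9 at 0.0953 CPM (0.252 to 0.265 CPM in the others). Several of these sets hold values of a few reads per library, and no cause was tested.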

How the results depend on the processing

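Counts of called members kept within 1.5 times their value under every alternative run except for the members called lower with library size alone, 1 in HOMO against WT and 1 in HOMO against HET; that scaling moved the median of all genes to 0.65 and 0.67 and called 40 and 42 members higher. Over all genes it called 10380 higher and 2514 lower in HOMO against HET, where TMM called 5733 and 5466. In HET against WT, DESeq2 called 1 gene and edgeR 0. Leaving out 1 library at a time gave 10926 to 11583 genes, 36 to 37 members higher and 3 to 4 lower in HOMO against WT, 10743 to 11417 genes, 36 to 38 members higher and 2 to 4 lower in HOMO against HET, and 0 genes in HET against WT. Signs turned in HOMO against WT with library size alone for Ackr3 (0.19), Ccl27 (0.61), Cx3cl1 (0.53), Cxcl11 (0.083), Cxcl12 (0.47), Cxcl9 (0.13) and Xcl1 (0.10), and in HOMO against HET for Ackr3 (0.31), the called member among 6 that turned, and for Ccl27 (0.42), Cxcl9 (0.41), Ccl4 (0.11), Cxcl11 (0.095) and Xcl1 (0.068), which were not called. The construction of this scaling, which leaves the shift of all genes in, moves every value up. Leaving out 1 library at a time turned values near 0, over ranges of -0.18 to 0.10 for Ccl27, -0.17 to 0.045 for Cx3cl1, -0.16 to 0.29 for Cxcl10 and -0.33 to 0.12 for Cxcl12, the last without the library labelled HOMO replicate 3. Without HOMO replicates 1 and 3 together, Ccl27 was 0.076, Cxcl10 -0.52 and Cxcl12 0.023; the cause was not tested.

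The replicate numbers did not pair the libraries: deviations of same-numbered HOMO and WT libraries correlated at -0.13 to 0.02, of HET and WT libraries at -0.03 to 0.18, and of HOMO and HET libraries at -0.10 to 0.44, the highest for replicate 1. Of 12 libraries, 2 correlated best with a library of their own number. With the replicate block, 36 members were called higher and 4 lower in HOMO against WT (11265 genes), 36 and 3 in HOMO against HET (10805 genes) and 0 in HET against WT; Cxcl10 turned to -0.015, Cxcl11 was called lower (-0.61) and the call of Ackr3 in HOMO against HET was lost (-0.24, adjusted p = 0.149 by edgeR). Depth limits the 5 members below the filter and the members with under 1 CPM in HET and WT libraries, whose fold changes rest on a few reads.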

Other observations

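Other cell type markers, measured beside the chemokine genes, moved as follows in HOMO relative to WT cortex, on lists chosen with earlier results of these data known. Dendritic cell markers rose in 5 of 6 cases, among them Clec10a, at 69.5 ± 6.91 CPM in HOMO and 5.22 ± 0.877 CPM in WT cortex (SD, n = 4 each). Mast cell markers rose in 3 of 3 tested cases, among them Kit by 1.46 ± 0.11. Podocyte markers fell in 2 of 3 cases and thick ascending limb markers in 1 of 2, and red blood cell, fat and urothelium markers were called in 0 cases of 3, 3 and 4 tested. Over all genes 37.0% were called higher and 34.7% lower, so counts on lists this short are a description only. Among genes named for lists of chemokine inducers, Il1a, Il17a, Lta and Ltb were at 0 in WT libraries and below the filter.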
